A study of Mus musculus with 8 samples.

Results

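Imprinted growth regulators are genes that are expressed from 1 parental copy and that act on the growth of embryonic, placental or endocrine tissue. The members were the 10 mouse genes Igf2, H19, Dlk1, Meg3, Plagl1, Peg3, Mest, Ndn, Cdkn1c and Grb10. They were chosen by name and found through the feature name of each non-control probe. They held 23 of the 55681 probes, and all 10 genes were among the 25202 features that were well above background on at least 3 arrays and were tested. Ovarian RNA of cycling mice, 33 weeks old per the design text, was profiled on 8 one-colour Agilent arrays, with 3 wildtype ovaries and 5 ovarian neoplasias. The control mice were labelled Wildtype and healthy, with no engineered allele named. The neoplasia mice carried Pgrcre/+ together with an LsL allele, written mPgrLsL/+ in the sample labels and PgrBLsL/+ in the design text, and the title of the series names PGR-B, an isoform of the progesterone receptor. A cre placed at Pgr acts in cells that have used that gene, which are not confined to the ovary. Separate animals are not stated in the labels, and p-values here describe the spread among these arrays, which may be partly technical. An array measures total transcript, so neither the parental allele in use nor the methylation of an imprint was measured.

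At an imprinted domain, DNA methylation laid down in the egg or the sperm marks a control region, and the mark is kept on 1 parental copy after fertilisation. ZFP57, a zinc-finger protein that binds a methylated motif, takes part in keeping these marks. Paternally expressed members such as Igf2, Dlk1 and Mest mostly promote growth, whereas maternally expressed members such as H19, Cdkn1c and Grb10 mostly restrain it. Many are abundant before birth and decline afterwards, with continued expression in endocrine tissues that include the ovary.

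Both microRNA and promoter sequences are shown, all from RefSeq on GRCm38.p6. The first are the mature microRNAs encoded within H19 and Igf2, the members that were higher in neoplasia, because a host transcript and its microRNA come from the same primary RNA. The array had no probe named for these microRNAs, so they were not measured. Capitals mark the seed, bases 2 to 8, and no seed was shared among the 4.
miR-675-5p (H19): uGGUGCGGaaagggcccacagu
miR-675-3p (H19): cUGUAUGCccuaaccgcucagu
miR-483-5p (Igf2): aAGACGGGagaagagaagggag
miR-483-3p (Igf2): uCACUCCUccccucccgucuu

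The second are promoters of members described below, from 250 bases before to 50 bases after the transcript start. Of the 10 members 8 had a promoter in the table, with 15 windows in all, and H19 and Cdkn1c had no entry. Both strands were searched for TGCCGC, the ZFP57 motif, and for GGGGCCCC, a motif of PLAGL1, which is itself a member. TGCCGC, which reads GCGGCA on the other strand, stood in 6 of the 15 windows and in 5 of the 8 members, where 11.6% of all 32851 promoter windows held it. Of these 6, 2 are Mest windows that overlap almost wholly and hold the same matches, and a member with several windows has more chances to hold a match. GGGGCCCC stood in 1 of the 15 windows, that of Peg3, against 1.08% of all promoters. Capitals below mark these matches, which describe letters and not binding sites. The windows lie at chr10:13090582-13090881 on the plus strand for Plagl1, chr12:109540746-109541045 on the plus strand for Meg3, chr6:30737800-30738099 on the plus strand for Mest, chr7:142661222-142661521 on the minus strand for 1 of the 4 Igf2 windows, and chr7:6730370-6730669 on the minus strand for Peg3.
Plagl1: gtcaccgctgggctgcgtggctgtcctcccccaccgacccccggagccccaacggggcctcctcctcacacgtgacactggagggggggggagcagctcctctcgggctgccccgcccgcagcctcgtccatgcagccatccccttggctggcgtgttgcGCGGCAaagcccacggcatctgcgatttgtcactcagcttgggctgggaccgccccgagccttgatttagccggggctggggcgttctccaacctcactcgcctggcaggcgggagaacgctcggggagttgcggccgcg
Meg3: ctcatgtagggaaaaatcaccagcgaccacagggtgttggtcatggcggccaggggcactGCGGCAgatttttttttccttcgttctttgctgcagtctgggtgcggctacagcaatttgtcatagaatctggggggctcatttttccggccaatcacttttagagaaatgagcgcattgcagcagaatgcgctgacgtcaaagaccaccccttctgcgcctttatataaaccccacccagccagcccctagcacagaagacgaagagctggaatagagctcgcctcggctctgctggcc
Mest: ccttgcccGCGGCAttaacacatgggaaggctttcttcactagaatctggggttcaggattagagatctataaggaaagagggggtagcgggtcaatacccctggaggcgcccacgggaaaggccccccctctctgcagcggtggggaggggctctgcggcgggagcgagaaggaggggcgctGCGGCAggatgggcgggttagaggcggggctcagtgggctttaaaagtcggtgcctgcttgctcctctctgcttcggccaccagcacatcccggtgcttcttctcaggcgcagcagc
Igf2: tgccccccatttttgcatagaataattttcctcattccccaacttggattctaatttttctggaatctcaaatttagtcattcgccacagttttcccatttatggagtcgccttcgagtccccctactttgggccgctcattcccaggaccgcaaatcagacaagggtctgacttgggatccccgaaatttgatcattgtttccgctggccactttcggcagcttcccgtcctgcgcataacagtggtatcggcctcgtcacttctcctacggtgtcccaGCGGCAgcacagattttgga
Peg3: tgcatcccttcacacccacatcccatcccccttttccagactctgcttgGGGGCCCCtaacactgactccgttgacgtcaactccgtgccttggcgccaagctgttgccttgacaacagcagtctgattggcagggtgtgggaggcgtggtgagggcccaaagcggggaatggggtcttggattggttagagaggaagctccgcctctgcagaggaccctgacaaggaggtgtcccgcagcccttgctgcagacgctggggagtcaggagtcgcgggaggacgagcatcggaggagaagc
The Plagl1 window held 26 CpG dinucleotides, Mest 17, Igf2 14, Meg3 13 and Peg3 13, where the median of all promoters was 7. These windows were picked for their matches, most of which contain a CpG themselves, and other windows of the same genes held fewer, such as 1 for Meg3, 2 for Igf2 and 8 for Mest, or more, with 24 for Igf2. A window of Grb10, not printed, held 45 CpG dinucleotides and the TGCCGC motif, and its other window held 9. The windows of Dlk1 and Ndn held neither motif.

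Values below are log2 processed intensity minus the 75th percentile of the same array, called the scaled log2 level. That percentile was 462 to 515 intensity units in wildtype and 309 to 429 in neoplasia, and no member probe was saturated. Neoplasia 1 stood apart in its 5 usable spike-in controls, with a mean log2 intensity of 8.89 against 10.04 to 10.76 on the other arrays, so the differences of the called members are also given without it. Neoplasia 1 to 4 lay in the first row of the slide, and neoplasia 5 lay in the second row with all 3 wildtype arrays. The comparison within the second row thus holds 1 neoplasia array and is given as a value with no test, and a fit with slide row as a block takes its difference from the same array and its spread from all 8. Across all features, 30.4% passed the test in the comparison of neoplasia with wildtype, 16.8% higher and 13.5% lower, at an adjusted p under 0.05 (limma, Benjamini-Hochberg). The groups did not overlap for 39.1% of features, 23.0% higher and 16.1% lower. The median log2 difference of all features was 0.13, and it moved to 0.21 with normexp background correction, 0.02 with quantile normalization, -0.46 with spike-in scaling and -0.34 in the authors' deposited values. Of the calls, 55.4% were higher as scaled here, 66.2% with normexp, 49.6% with quantile normalization, 15.5% with spike-in scaling and 19.9% in the deposited values.

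Of the 10 members 4 passed the test, 2 higher and 2 lower, and the same 4 were those whose groups did not overlap. This 40.0% stands near the 30.4% of all features, and the median difference of the members was -0.37. Igf2 and H19 were higher in neoplasia, and Plagl1 and Ndn were lower. Igf2 passed the background filter only through its neoplasia arrays, so its place in both counts was largely set by that filter. The other 6 members did not pass, and in most of them the neoplasia arrays lay both above and below wildtype.

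**Figure D1:**
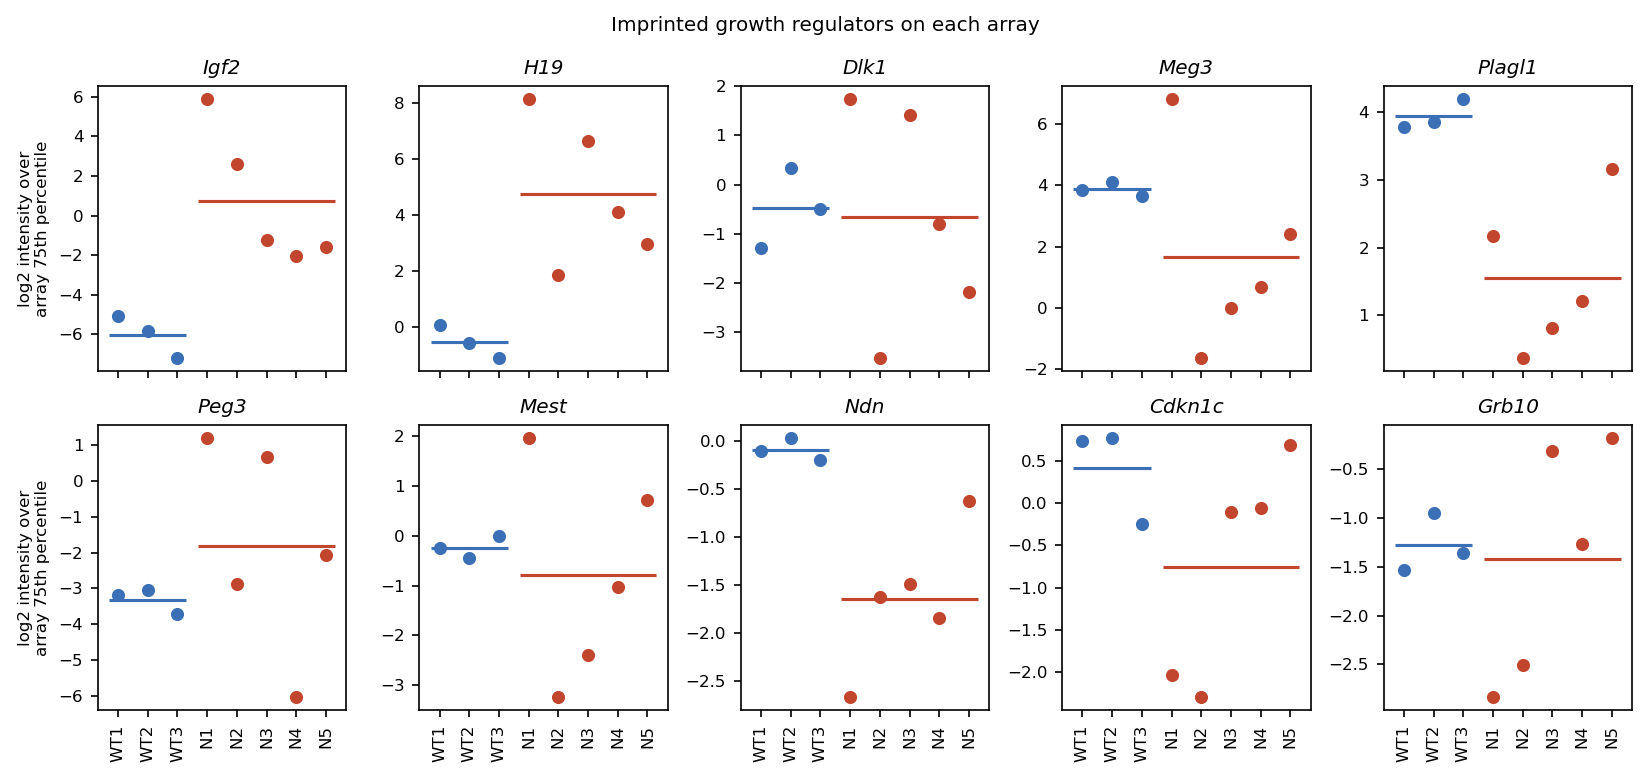
Scaled log2 level of each of the 10 genes on each array, in log2 units over the 75th percentile of the array (WT wildtype, blue; N neoplasia, red; lines are group means; each panel has its own axis). Igf2 and H19 lie higher, and Plagl1 and Ndn lower, in all 5 neoplasias than in the 3 wildtype arrays, while the neoplasias lie on both sides of wildtype for Meg3, Dlk1, Peg3 and Mest.

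Igf2 encodes insulin-like growth factor 2, a ligand of the type 1 IGF receptor that is expressed from the paternal allele in most fetal tissues. Its probe was not well above background on any wildtype array and was above it on all 5 neoplasia arrays. Processed intensity was 15.0, 9.20 and 3.20 in wildtype 1 to 3, and 18314, 2599, 153, 80.4 and 121 in neoplasia 1 to 5. The 5 neoplasias therefore spanned a 248-fold range, with neoplasia 1 and 2 far above the other 3. Igf2 was at least 58.6-fold higher in neoplasia, set against the lowest signal well above background on the wildtype arrays. The limma difference was 6.75 ± 1.78 log2 (SE, 3 against 5 arrays), with an adjusted p of 0.025, and 5.46 with an adjusted p of 0.016 without neoplasia 1. The probe passed the background filter through neoplasia alone, and the wildtype values in this difference lie below background. Its direction was thus largely set in advance, and these p-values do not support it. Within the second slide row, neoplasia 5 lay 4.46 above the wildtype mean. With slide row as a block the call was lost, at the same difference and an adjusted p of 0.384, and with normexp background correction it was 3.66 with an adjusted p of 0.090.

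H19 is a maternally expressed noncoding RNA that lies next to Igf2 and shares its enhancers and control region. Its scaled log2 level was 0.07, -0.56 and -1.08 in wildtype 1 to 3, and 8.13, 1.86, 6.64, 4.10 and 2.96 in neoplasia 1 to 5. Every neoplasia array lay above every wildtype array, and neoplasia 1 and 3 were the highest. H19 was 38.3-fold higher in neoplasia, a difference of 5.26 ± 1.34 log2 (SE, 3 against 5 arrays) with an adjusted p of 0.022 by limma, and 4.41 with an adjusted p of 0.024 without neoplasia 1. Its 5 probes gave differences from 4.67 to 5.26 log2, each with an adjusted p between 0.021 and 0.030 when every probe was tested as its own feature. Neoplasia 5 alone lay 3.48 above the wildtype mean, and with slide row as a block the call was lost with an adjusted p of 0.364.

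Igf2 and H19 did not share one order among the neoplasias. Neoplasia 1 was highest for both, but neoplasia 2 was the second highest for Igf2 and the lowest for H19. On each array the H19 level minus the Igf2 level was 2.24, -0.74, 7.88, 6.17 and 4.52 log2 in neoplasia 1 to 5. No such difference is given for wildtype, where Igf2 was not above background on any array, and the test of this pair between the groups is void for that reason. Ins2, the neighbour of Igf2 that encodes an insulin, differed by -0.12 log2 with an adjusted p of 0.821.

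Leaving out any 1 wildtype array removed the calls of Igf2, H19, Plagl1 and Ndn alike, with the adjusted p rising to at most 0.084 for Igf2, 0.074 for H19, 0.069 for Plagl1 and 0.085 for Ndn. The directions of these 4 genes held under every alternative that could test them, whichever scaling was used. For Igf2 the direction was largely set by the background filter.

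**Figure D2:**
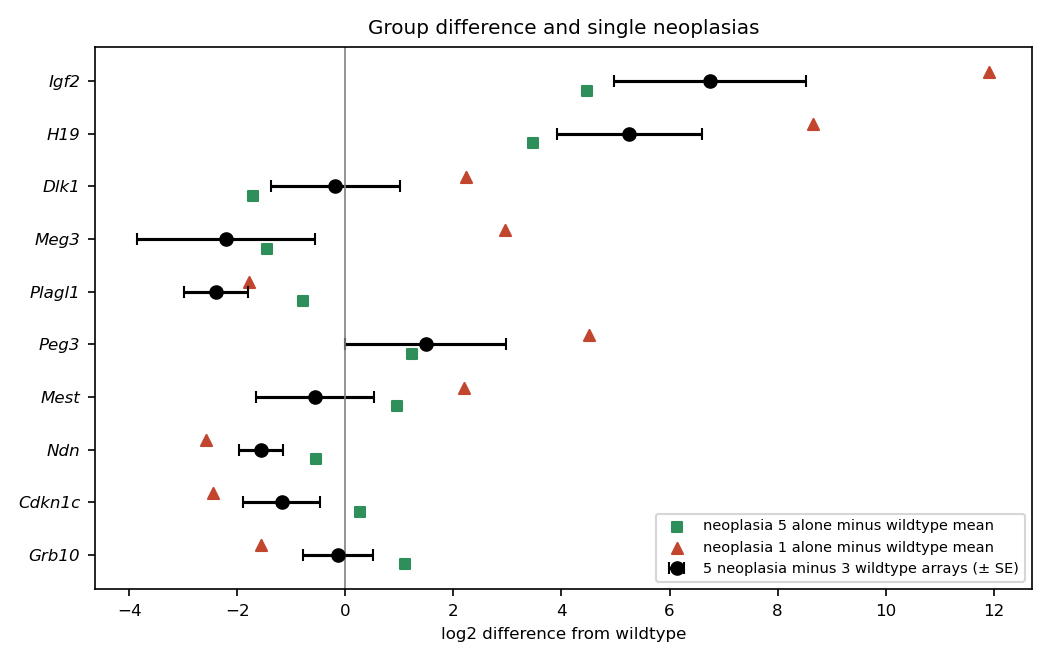
Log2 difference from wildtype of each of the 10 genes: black circles with bars give the limma difference of 5 neoplasia and 3 wildtype arrays ± SE, red triangles neoplasia 1 minus the wildtype mean and green squares neoplasia 5 minus the wildtype mean. Neoplasia 1 lies 11.9 above wildtype for Igf2 and 2.95 above it for Meg3, and neoplasia 5, from the same slide row as wildtype, lies closer to wildtype than the group mean for Igf2, H19, Meg3, Plagl1 and Ndn.

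Meg3 and Dlk1 belong to a second imprinted domain, on chromosome 12. Dlk1, expressed from the paternal allele, encodes a transmembrane protein that resembles Notch ligands, and Meg3 is a maternally expressed noncoding RNA. Meg3 was even among the wildtype ovaries and spread widely among the neoplasias, and neither gene passed the test. Processed intensity of Meg3 was 7295, 8865 and 5854 in wildtype 1 to 3, and 34839, 139, 363, 544 and 1926 in neoplasia 1 to 5. The range was 1.36-fold in wildtype and 349-fold in neoplasia on the scaled level. Neoplasia 1 lay above all wildtype arrays and the other 4 neoplasias below all of them. The group difference was -2.21 ± 1.64 log2 (SE, 3 against 5 arrays), with an adjusted p of 0.324 by limma. Without neoplasia 1 it was -3.50 with an adjusted p of 0.025, so the call changes with that array. Neoplasia 5 alone differed from the wildtype mean by -1.44. The other 2 Meg3 probes, above background on 2 and on 4 of the 5 neoplasia arrays, gave -1.04 and -1.73 log2 and did not pass.

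Dlk1 had scaled log2 levels of -1.30, 0.34 and -0.50 in wildtype 1 to 3, and 1.74, -3.53, 1.42, -0.79 and -2.19 in neoplasia 1 to 5. Neoplasia 1 and 3 lay above the wildtype arrays, neoplasia 2 and 5 below them, and neoplasia 4 within their range. The difference was -0.19 ± 1.20 log2 with an adjusted p of 0.918, and its sign turned to 0.068 with normexp. The second Dlk1 probe, above background on 2 of the 5 neoplasia arrays, gave -0.93.

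On each array, Meg3 minus Dlk1 was 5.13, 3.76 and 4.16 log2 in wildtype 1 to 3 and 5.07, 1.90, -1.42, 1.48 and 4.62 in neoplasia 1 to 5. The group difference of -2.02 log2 had p = 0.304 in an exact two-sided permutation test over the 56 splits. No adjusted value is given, because the only other pair planned, H19 with Igf2, is void. The smallest p this design allows is 0.0179. Neoplasia 3 stood out by its high Dlk1 and its Meg3 level below wildtype. The neighbouring Mirg, a maternally expressed noncoding RNA that hosts microRNAs, had scaled log2 levels of -0.32, -0.28 and -0.41 in wildtype 1 to 3 and 4.34, -3.70, -2.89, -2.15 and -0.31 in neoplasia 1 to 5. Mirg was thus high in neoplasia 1 and low in neoplasia 2 to 4, as Meg3 was, with a group difference of -0.60 ± 1.63 log2 and an adjusted p of 0.797. Dio3, at the far end of the domain, encodes the deiodinase that inactivates thyroid hormone. It fell by 3.57 ± 0.82 log2 with an adjusted p of 0.016 and was above background on 1 of the 5 neoplasia arrays. Begain, at the near end, was above background on 4 of the 5 and fell by 2.78 ± 0.55 log2 with an adjusted p of 0.0091.

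**Figure D3:**
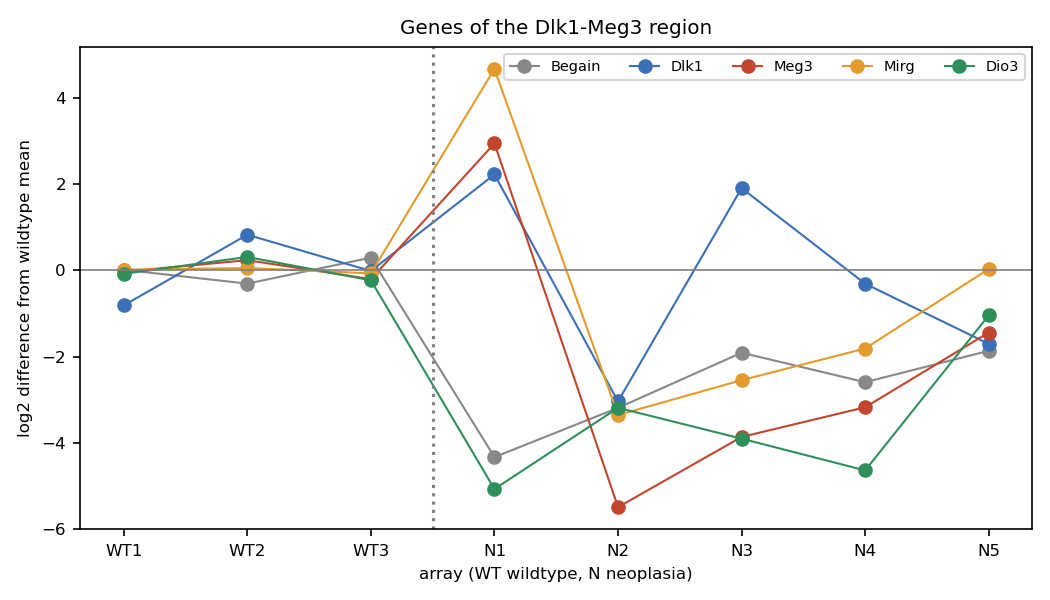
Log2 difference from the wildtype mean of 5 genes of the Dlk1-Meg3 region on each array (WT wildtype, N neoplasia; lines join arrays for reading and carry no order). In neoplasia 1 Dlk1, Meg3 and Mirg lie above wildtype and Begain and Dio3 below it, and in neoplasia 2 all 5 genes lie below it. Dio3 was above background on 1 of the 5 neoplasia arrays and Begain on 4, so their lowest points have no order.

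Plagl1, also called Zac1, is a paternally expressed zinc-finger transcription factor that acts on other imprinted genes and can arrest the cell cycle. Its scaled log2 level was 3.78, 3.85 and 4.20 in wildtype 1 to 3 and 2.17, 0.37, 0.81, 1.21 and 3.17 in neoplasia 1 to 5. All 5 neoplasias lay below all wildtype arrays, with neoplasia 5 nearest to them. Plagl1 was 5.28-fold lower in neoplasia, a difference of -2.40 ± 0.59 log2 (SE, 3 against 5 arrays) with an adjusted p of 0.021 by limma, and -2.56 with an adjusted p of 0.027 without neoplasia 1. Its 4 probes disagreed: a second gave -2.41 with an adjusted p of 0.021, whereas the other 2 gave -0.16 with 0.630 and -0.53 with 0.075. Neoplasia 5 alone differed from the wildtype mean by -0.78, and the adjusted p with slide row as a block was 0.491.

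Ndn encodes necdin, a growth-suppressing protein of the MAGE family that is expressed from the paternal allele. Its scaled log2 level was -0.10, 0.03 and -0.19 in wildtype 1 to 3 and -2.67, -1.62, -1.49, -1.84 and -0.62 in neoplasia 1 to 5. The neoplasias all lay below wildtype, and neoplasia 5 again lay nearest. Ndn fell by 1.56 ± 0.40 log2, a 2.95-fold difference, with an adjusted p of 0.024 by limma, and by 1.30 with an adjusted p of 0.024 without neoplasia 1. The value within the second slide row was -0.53, and with slide row as a block the adjusted p was 0.518. Without neoplasia 4 the adjusted p was 0.051. Mkrn3, an imprinted neighbour of Ndn that encodes a ring-finger protein, fell by 2.46 ± 0.41 log2 with an adjusted p of 0.0047, whereas Magel2, a MAGE-family neighbour, differed by 0.82 with an adjusted p of 0.319.

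Peg3, a paternally expressed zinc-finger gene, was above background on all 3 wildtype arrays and on 4 of the 5 neoplasia arrays. Its scaled log2 level was -3.17, -3.06 and -3.72 in wildtype 1 to 3 and 1.19, -2.88, 0.67, -6.03 and -2.08 in neoplasia 1 to 5. Neoplasia 4 lay below wildtype and the other 4 lay above it. The difference of 1.49 ± 1.49 log2 had an adjusted p of 0.463. The second Peg3 probe, above background on 1 wildtype and 3 neoplasia arrays, gave 1.51.

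Mest encodes a paternally expressed protein of the alpha/beta hydrolase fold that is linked to fetal and adipose growth. Its scaled log2 level was -0.25, -0.45 and -0.02 in wildtype 1 to 3 and 1.95, -3.24, -2.39, -1.02 and 0.71 in neoplasia 1 to 5. Neoplasia 1 and 5 lay above the wildtype arrays and neoplasia 2, 3 and 4 below them. The difference was -0.56 ± 1.097 log2 with an adjusted p of 0.717, and the sign turned to 0.95 within the second slide row. The other 2 Mest probes gave -0.55 and 0.0048, the latter above background on 2 of the 5 neoplasia arrays.

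Cdkn1c and Grb10 are inhibitors of growth expressed from the maternal allele in most tissues. Cdkn1c encodes p57, an inhibitor of cyclin-dependent kinases, and Grb10 an adaptor that restrains signalling from the insulin and IGF receptors. The scaled log2 level of Cdkn1c was 0.73, 0.76 and -0.25 in wildtype 1 to 3 and -2.03, -2.29, -0.11, -0.06 and 0.68 in neoplasia 1 to 5. Neoplasia 1 and 2 were lower than every wildtype array and neoplasia 3 to 5 lay within the wildtype range. The difference of -1.18 ± 0.71 log2 had an adjusted p of 0.232 and passed the test with spike-in scaling, at -1.77 with an adjusted p of 0.042. Within the second slide row it was 0.27.

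Grb10 had scaled log2 levels of -1.53, -0.95 and -1.36 in wildtype 1 to 3 and -2.84, -2.50, -0.31, -1.27 and -0.18 in neoplasia 1 to 5. Again neoplasia 1 and 2 were the lowest, and neoplasia 3 and 5 were above wildtype. The difference was -0.14 ± 0.64 log2 with an adjusted p of 0.883, and its sign turned to 0.069 with normexp and to 0.035 with quantile normalization. Kcnq1, a potassium channel gene in the same imprinted domain as Cdkn1c, rose by 2.55 ± 0.73 log2 with an adjusted p of 0.033, and Kcnq1ot1, the noncoding RNA of that domain, differed by -0.71 with an adjusted p of 0.214.

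The neoplasias differed from each other more in the members than in most features. The median SD over the 5 neoplasia arrays was 2.21 log2 for the members, 0.75 for the 39 other imprinted genes tested and 0.47 for all features, whereas in wildtype these medians were 0.33, 0.18 and 0.20. The SD was over 2 log2 in 6 of the 10 members, in 3 of the other imprinted genes or 7.69%, and in 2.33% of all features. For Peg3, 1 of the 6, it includes the neoplasia 4 value that was not above background. Neoplasia 1 was the highest of the 5 for Igf2, H19, Dlk1, Meg3, Peg3 and Mest, or 60.0% of members against 26.0% of features. Neoplasia 5 was the highest for the other 4, Plagl1, Ndn, Cdkn1c and Grb10, or 40.0% of members against 21.6% of features. Neoplasia 2 was the lowest for 6 members, H19, Dlk1, Meg3, Plagl1, Mest and Cdkn1c, against 19.5% of features.

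**Figure D4:**
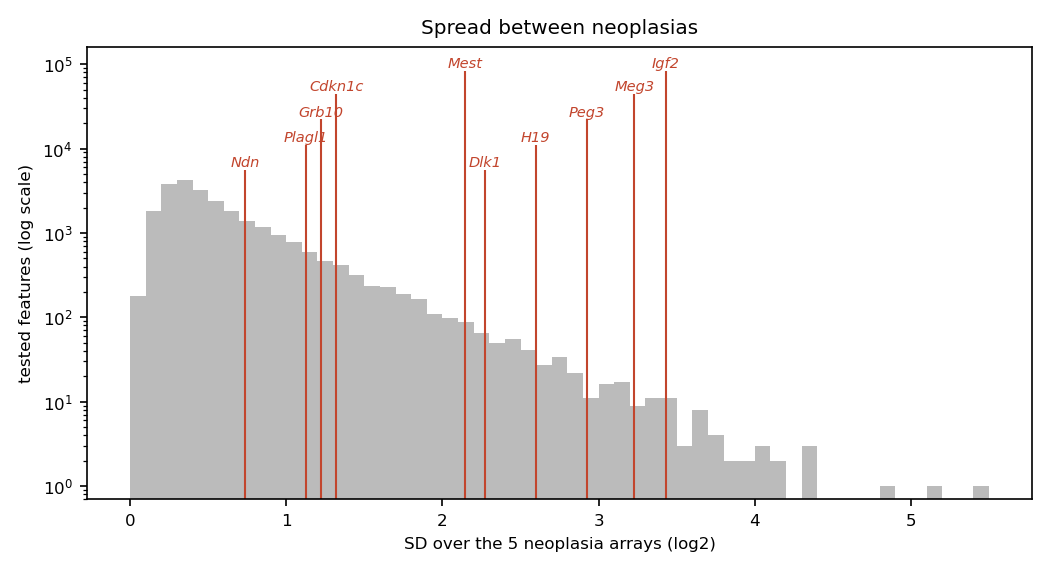
Histogram of the SD over the 5 neoplasia arrays (log2) of the tested features with a value on every array, the count on a log axis, with each of the 10 genes marked by a red line. Of the 10 genes 6 lie above 2 log2, from Mest to Igf2 at 3.43, and Ndn is the lowest at 0.74.

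Profiles were compared after subtracting each gene's own mean over the 8 arrays, for the 3 members with the widest range among those above background everywhere. Of 12646 candidate genes, the nearest to H19 by root mean square difference were Ccl17, a chemokine gene, at 1.06 log2, Car11 at 1.08 and Kcnj15 at 1.09. Nearest to Meg3 were Mirg, from the same domain, at 0.82, and Tceal3 at 1.03. Nearest to Dlk1 were Bex1 at 0.81, Kcnd3 at 0.84 and Gpr1 at 0.86. The 8 arrays are shared by all these profiles, so the distances describe likeness in these samples.

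Of 54 other imprinted genes listed, 51 were on the array and 39 were tested, of which 4 were higher, 7 lower and 28 did not pass. The share that passed was 28.2%, near the 30.4% of all features, and their median difference was 0.20 log2. Nap1l5, which resembles nucleosome assembly proteins, had the largest fall among them. It was at least 104-fold lower, since none of the 5 neoplasia arrays was above background, with an adjusted p of 2.96e-05 by limma. Nap1l5 passed the background filter through wildtype alone, so its direction was largely set in advance and this p does not support it. Slc38a4, an amino acid transporter, was higher by 5.15 ± 0.52 log2, or 35.4-fold, with an adjusted p of 0.00043. Nnat, which encodes the membrane protein neuronatin, fell by 4.02 ± 0.49 log2 with an adjusted p of 0.0011. These 3 genes kept their calls in every alternative that could test them, which for Nap1l5 adds no support to its direction. Ppp1r9a, which encodes the actin-binding neurabin, fell by 3.18 ± 0.68 with an adjusted p of 0.013. Snrpn, a splicing protein gene of the Ndn region, fell by 3.26 ± 0.98 with an adjusted p of 0.039, was above background on 2 of the 5 neoplasia arrays, and lost the call in 9 of 18 alternatives. Without 1 wildtype array, the adjusted p rose to at most 0.054 for Ppp1r9a (wildtype 1), 0.064 for Dio3 (wildtype 1 or 2), 0.098 for Kcnq1 and 0.115 for Snrpn (any of the 3). Snrpn also lost the call without neoplasia 1, 2 or 4, and Kcnq1 without neoplasia 3. With slide row as a block the calls of Ppp1r9a, Dio3, Snrpn, Kcnq1, Begain and Mkrn3 were lost, with adjusted p of 0.227, 0.396, 0.501, 0.441, 0.226 and 0.114, and Snrpn lost its call with the replicate block, at 0.072. Begain, Mkrn3 and Kcnq1 were named after their values were seen, as neighbours of members, as were the genes given above that did not pass.

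A list of RNA-binding proteins that act on growth transcripts, with the chromatin proteins Hmga1 and Hmga2, had 5 tested genes, of which 3 were higher and none was lower, where 16.8% of all features were higher. Of its 3 RNA-binding genes 2 were higher, and Lin28a differed by -0.17 with an adjusted p of 0.581. Igf2bp1 and Igf2bp2 encode proteins that bind Igf2 mRNA, and Hmga1 encodes a chromatin protein abundant in fetal and tumour cells. Igf2bp1 was below background on all 3 wildtype arrays and above it on 4 of the 5 neoplasia arrays, and was at least 9.16-fold higher with an adjusted p of 0.014. It passed the background filter through neoplasia alone, so its direction was largely set in advance and this p does not support it. Its scaled log2 level was 0.03, -5.01, -1.75, -0.11 and -3.04 in neoplasia 1 to 5. Hmga1 was higher by 3.57 ± 0.40 log2 with an adjusted p of 0.00072, and Igf2bp2 by 3.53 ± 0.46 with 0.0016. All 5 neoplasias lay above wildtype for both. Without wildtype 1 or wildtype 2 the call of Igf2bp1 was lost, with an adjusted p of at most 0.060. With slide row as a block Igf2bp1 and Igf2bp2 lost their calls, with adjusted p of 0.246 and 0.059, while Hmga1 kept its call.

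Among 12 tested receptors, substrates and binding proteins of the IGF and insulin pathway, 1 was higher and none was lower. Of all features, 16.8% were higher and 13.5% lower. Igfbp3, a binding protein that carries IGFs, rose by 4.35 ± 0.41 log2, or 20.3-fold, with an adjusted p of 0.00032. The receptor genes did not pass: Igf1r differed by 0.36 with an adjusted p of 0.539, Igf2r by 0.31 with 0.372 and Insr by 0.50 with 0.183.

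Of 12 tested genes that set or keep imprints, 1 was higher and 4 were lower, where 16.8% of all features were higher and 13.5% lower. Dppa3, an egg factor that protects methylation after fertilisation, was at least 11.1-fold lower with an adjusted p of 0.00044 and was above background on none of the neoplasia arrays. Dppa3 passed the background filter through wildtype alone, so its direction and its place in this count were largely set in advance. This p does not support that direction. The DNA methyltransferase genes Dnmt3a and Dnmt3b fell by 1.73 ± 0.20 and by 1.49 ± 0.33 log2, with adjusted p of 0.00086 and 0.013. Their cofactor Dnmt3l rose by 2.43 ± 0.65 with an adjusted p of 0.026. Zfp57 fell by 1.25 ± 0.31 with an adjusted p of 0.021, but with normexp background correction it was 0.68 higher with an adjusted p of 0.016, so its direction depends on the background correction, and averaged over its probes it differed by -0.09 with an adjusted p of 0.817. Without 1 wildtype array the calls of Dnmt3l and Zfp57 (any of the 3) and of Dnmt3b (wildtype 1 or 3) were lost, with adjusted p of at most 0.101, 0.076 and 0.059. The same 3 lost their calls with slide row as a block, with adjusted p of 0.152 for Dnmt3l, 0.166 for Zfp57 and 0.297 for Dnmt3b, and Zfp57 also with the replicate block, at 0.072. Trim28, its partner, and Ctcf, the insulator protein of the H19 control region, did not pass, at -0.26 with 0.309 and -0.32 with 0.157.

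Cell-type markers moved between the groups, and their part in the values above was not tested. The counts below stand beside 16.8% of all features higher and 13.5% lower. In bulk tissue, fewer cells of a type and less RNA per cell cannot be told apart. All 12 oocyte markers tested were lower, 8 of them above background on no neoplasia array, with summed scaled levels on a linear scale of 32.9 to 42.7 in wildtype and 0.341 to 0.614 in neoplasia. The granulosa markers were lower in 8 of 10, at 190 to 271 against 57.0 to 96.3, with Amh, Cyp19a1 and Fshr below background on all neoplasia arrays. The luteal markers were lower in 9 of 9, at 470 to 931 against 63.6 to 149, with Lhcgr and Ptgfr below background there. Theca markers were lower in 5 of 7, and the sum was 201 to 245 against 245 to 705. That sum came mostly from Aldh1a1, which did not pass, with an adjusted p of 0.074 by limma. Among the lower markers, Hsd3b6 fell by 9.08 log2 and Gli1 by 5.52. Stromal and smooth muscle markers summed to 351 to 641 in wildtype and to 41.9, 36.0, 45.3, 179 and 725 in neoplasia 1 to 5, with 1 of 12 lower. Neoplasia 5, the only neoplasia array in the slide row of wildtype, held the highest of these sums and neoplasia 2 the lowest. A link between these sums and the member levels was not tested. Erythrocyte markers were higher in 7 of 7, at 39.9 to 114 against 1063 to 2815, macrophage markers in 9 of 11, at 67.9 to 74.0 against 140 to 262, and liver markers in 5 of 10, at 18.2 to 38.8 against 68.8 to 636. Epithelial markers were higher in 2 and lower in 3 of 10, at 13.8 to 324 against 180 to 768. In wildtype 1 and 2 the sum came mostly from Ovgp1, a lower gene, with processed intensities of 30864 and 130585 against 597 in wildtype 3. In neoplasia it came mostly from Krt18, a higher gene. Placental and decidual markers were higher in 2 and lower in 1 of 8, at 88.2 to 112 against 96.2 to 386. The wildtype sum came mostly from Gcm1, the lower gene, and the 2 higher were Prl8a2 and Hand2. Prl3d1 and Prl3b1 did not pass, and Tpbpa, Syna and Psg17 did not reach the test. Of 7 adipocyte markers 1 was lower, and the sum was 11.6 to 92.3 in wildtype against 178 in neoplasia 1 and 16.7 to 144 in the others. In neoplasia 1 the sum came mostly from Fabp4, and then Pparg, with processed intensities of 45455 and 8739. Adipoq and Cfd had processed intensities of 2.8 and 2.3 there, against 956 and 20947 in neoplasia 5.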

How the data were processed

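Agilent Feature Extraction 11.0.1.1 made the deposited scanner files, per the file headers. They hold the authors' processed spot intensity on a linear scale, already background-subtracted and not normalized between arrays, with a grid annotated on mm9. The deposited value table holds log2 values, which equalled log2 of the mean processed intensity over spots of 1 feature name to within 5.0e-05. The submitters' processing notes name Partek, with no role given. The number of arrays limits the precision.

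Spots flagged as outliers were left out, spots of a probe were averaged, and log2 intensity was scaled to the 75th percentile of each array. A probe was tested if well above background on at least 3 of the 8 arrays, and the probe with the highest mean stood for a gene. Groups came from the titles and genotypes. Neoplasia was tested against wildtype by the moderated linear model of limma 3.58.1 under R 4.3.3 (2-sided, adjusted over all 25202 features), after a test on simulated data. Of the probes, 47.7% received a symbol through RefSeq accessions, and 50 more, H19 among them, through the symbol in the file. Where a group had no array above background, a bound replaced the fold. Such a gene passed the filter through the other group alone, so its direction was largely set by the filter. Promoter and microRNA sequences came from RefSeq on GRCm38.p6, and gene coordinates are not printed because the builds differ.

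The text names all 10 members, up to 6 called genes of each other list by size of change, and the nearest profiles of 3 members, of which 1 is not reported here. Members and lists were chosen with earlier results of these data known. Alternatives were normexp, quantile and spike-in scaling, the deposited values, other filters, the mean over probes, trend and robust eBayes, a block for replicate number or for slide row, the second slide row by itself, and each array left out. The fit of each probe as its own feature was chosen after seeing the data.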

Additional observations from a re-analysis of the deposited data

Results flagged for a closer look

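The 5 neoplasia values of 25 genes, the 10 members and 15 called genes of the other lists, were searched for a single array far from the rest by Dixon's criterion, and 0 of the 25 met it.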

How the results depend on the processing

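The 4 calls among the members became 0 with slide row as a block and 0 to 5 with 1 array left out, the 0 in each case without a wildtype array. Over all features, 7649 calls became 4748 with spike-in scaling, 4692 with the replicate block and 1540 with slide row as a block, and 2832 to 9979 with 1 array left out (2832, 3208 and 4034 without wildtype 1, 2 and 3, and 9979 without neoplasia 5). Of these, 67.7% were higher with probes above background on all arrays and 42.9% with the replicate block, against 55.4%. The 11 calls among the other imprinted genes became 5 with probes above background on all arrays, 3 with slide row as a block, and 5 to 12 with 1 array left out. H19 minus Igf2, void because Igf2 was below background in wildtype, turned to 1.23 with normexp, and Meg3 minus Dlk1 to 0.26 with slide row as a block and within slide row 2. With slide row as a block or slide row 2 alone, Mest turned to 0.95, Cdkn1c to 0.27, Grb10 to 1.097 and Mirg to 0.032. Normexp turned Dlk1 to 0.068, Grb10 to 0.069 and Zfp57 to 0.68, and quantile normalization turned Grb10 to 0.035. With 1 array left out, the differences ranged from -0.79 to 0.53 for Dlk1, -1.25 to 0.051 for Mest, -0.45 to 0.21 for Grb10, -1.92 to 0.086 for Mirg, -0.99 to 0.15 for Bex1 and -0.92 to 0.15 for Kcnd3. The cause of these changes was not tested. Same-numbered arrays showed no sign of pairing, as their deviations correlated at -0.054, -0.030 and -0.0018, though these values cannot exclude it. The replicate block changed no call of a member, while Dlk1 turned to 0.36 and Bex1 to 0.18 in it. Igf2 and Peg3, and so H19 minus Igf2, could not be tested with probes above background on all arrays.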
